A study of Mus musculus with 12 samples.

Results

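Enzymes of purine and pyrimidine metabolism were followed as a group of 47 mouse genes that make, recycle, interconvert or break down nucleotides. They were chosen by symbol, by a rule that names enzymes and no measured value, though earlier results of these data were known, and all 47 were among the 54532 genes of the count table. Of these, 44 had enough counts to be tested, against 14293 genes of the whole table, while Cda, Dctd and Nme2 did not. RNA came from CD11c+ dendritic cells of mouse spleen, enriched by removing B, T and NK cells with antibodies before positive selection on magnetic columns. By the labels they were a mix of cDC1 and cDC2 cells. In 2 groups of 3 libraries the cells came from SLC29A3-/- C57BL6 mice (KO), and either met attenuated Salmonella typhimurium (STmDfla) or stayed untreated. The other 2 groups of 3 were cells of WT C57BL6 mice, with the same bacteria or untreated. For 30 min 10 bacteria were present per cell (the multiplicity of infection), then cells were washed and kept for 3 h. Neither the age of the mice nor the deleted part of Slc29a3 is given in the labels. Slc29a3 encodes ENT3, a transporter that moves nucleosides across the lysosomal membrane, and the study's title places it in antibacterial signalling and autophagy.

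Cells obtain nucleotides along separate routes. In synthesis from small precursors, the purine ring is built up on a ribose phosphate until IMP is reached, from which AMP and GMP are made, while the pyrimidine ring is built first and then joined to ribose phosphate to give UMP. In salvage, kinases and phosphoribosyltransferases turn nucleosides and bases, among them those released when a lysosome digests nucleic acids, back into nucleotides. Nucleotidases, phosphorylases and deaminases run the opposite way, towards free bases and uric acid, and phagocytes handle large amounts of such material. Some of these enzymes set the pool of deoxynucleotides, which a cell needs for DNA and which some viruses and bacteria compete for.

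Total gene counts ran from 15693172 to 24074596 per library, and the 47 enzymes together took 0.150 to 0.212% of them. The labels do not state from how many mice the 3 libraries of a group were made. By their sex-linked counts, libraries 1 were from other mice than libraries 2 and 3, while variation between libraries 2 and 3 may be technical, and p-values measure only how these libraries vary. Levels are given as CPM, the count scaled to library size in the usual way, here with TMM factors, for libraries 1, 2 and 3 in that order. Slc29a3 itself was counted in every library, at 147, 191 and 124 CPM in KO cells with bacteria, against 197, 233 and 207 CPM in WT cells with bacteria. Untreated KO cells had 94.0, 74.0 and 63.5 CPM of it, against 110.2, 99.2 and 104 CPM in untreated WT cells. KO cells were lower in both settings without passing the threshold of 0.05 (edgeR adjusted p = 0.0806 with bacteria and 0.111 untreated), and a count over the whole gene does not check the deletion. The dendritic cell markers Itgax, Zbtb46, Flt3, H2-Ab1 and Cd74 were all present, with summed levels of 13496 to 20579 CPM in KO libraries and 21191 to 28862 CPM in WT libraries. Libraries numbered 1 stood apart in every group, with B cell markers summing to 82.0 to 103 CPM against 11.5 to 25 CPM in the others, and with Y-linked counts where the others had Xist.

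Compared per kilobase of gene length, the most abundant of these messages in untreated cells were Nt5c, Hprt and Cmpk1 in both genotypes. In untreated WT cells Nt5c, a nucleotidase of the cytosol, averaged 45.0 CPM per kilobase and Hprt, which salvages hypoxanthine and guanine, 39.7. Next in that group stood the UMP and CMP kinase Cmpk1 at 28.6, the deoxynucleotide hydrolase Samhd1 at 26.9 and the adenylosuccinate synthase Adss at 26.4. At the low end were the guanine deaminase Gda at 0.280, the uridine phosphorylase Upp1 at 0.404 and the dihydroorotate dehydrogenase Dhodh at 0.462 CPM per kilobase. Of 43 pairs of neighbours in this order, 35 had overlapping ranges over the 3 libraries, so most adjacent ranks did not differ beyond their spread. In KO cells with bacteria the order was headed by Samhd1 at 63.3, Hprt at 47.9, Cmpk1 at 37.0 and the deoxycytidine kinase Dck at 35.9 CPM per kilobase, and 39 of the 43 neighbour pairs overlapped. Cda, the cytidine deaminase, had 0 counts in all 12 libraries, and the dCMP deaminase Dctd and the nucleoside diphosphate kinase Nme2 reached at most 15 and 17 counts in any library. Nme2 and its relative Nme1 overlap Gm20390 on the same strand, over 6441 and 11315 bases, and Gm20390 itself had 0 CPM. How reads shared by overlapping genes were counted is not given, so the counts of Nme2 and Nme1 are uncertain and may be too low.

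**Figure D1:**
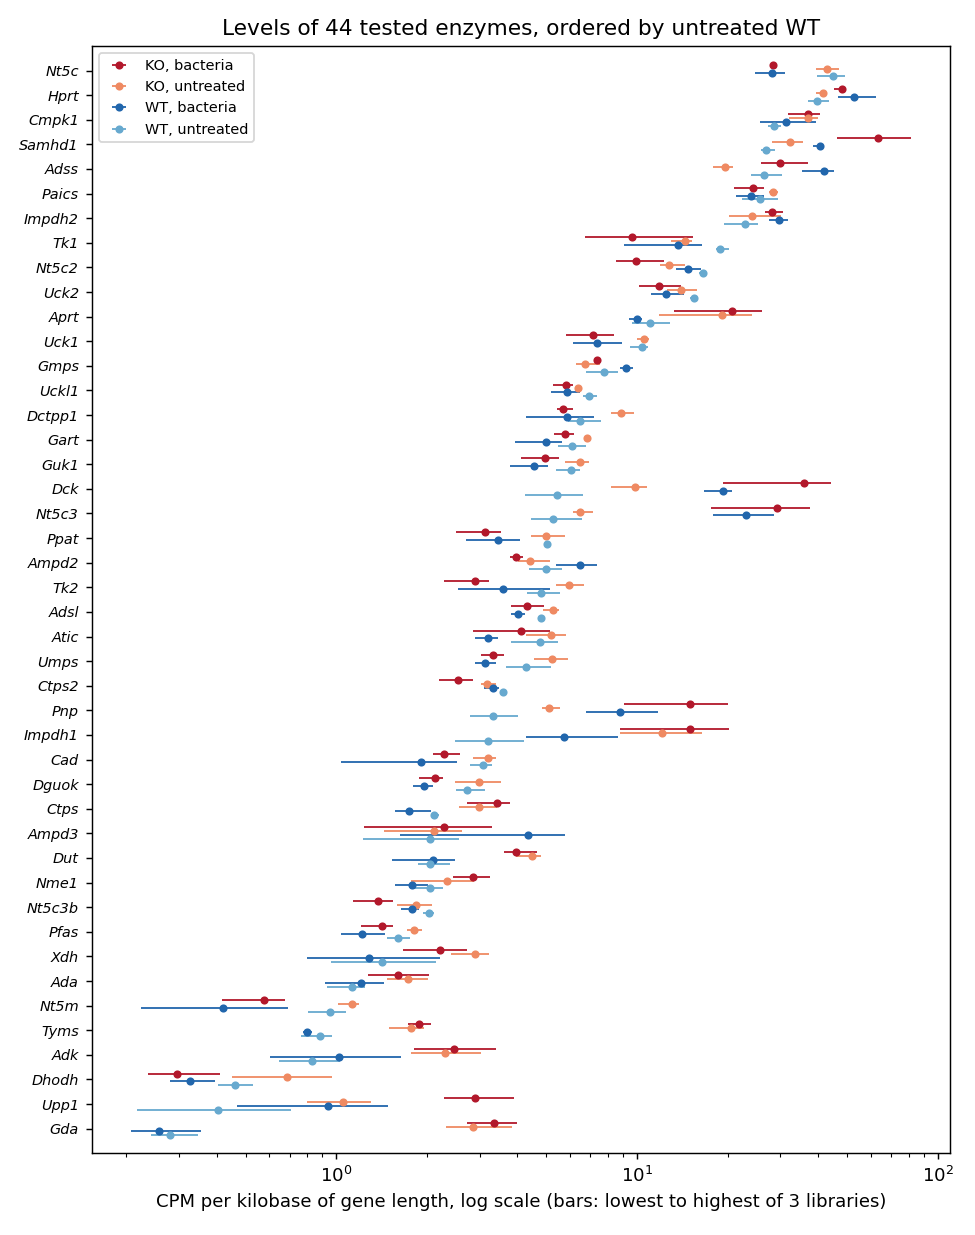
Level of the 44 tested enzymes in CPM per kilobase of gene length on a log axis, ordered by untreated WT cells. Points are means of 3 libraries and bars run from the lowest to the highest library. Gda, Upp1, Adk, Impdh1 and Tyms lie further right in the KO groups than in the WT groups of the same treatment, and Nt5c3, Dck and Pnp lie further right with bacteria than untreated in both genotypes.

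Sequence before a RefSeq start of transcription is shown for the members with the largest responses, so that the messages described below can be placed in the genome. Nt5c3, Dck and Pnp had the largest rises with bacteria in both genotypes, and Gda had the largest difference between genotypes. Each line holds the 250 bases before a start annotated by RefSeq on GRCm38.p6, written 5′ to 3′ on the gene's strand, with CG pairs in capitals. The windows are chr6:56901887-56902136 (minus strand) for Nt5c3, chr5:88764763-88765012 (plus strand) for Dck, chr14:50944053-50944302 (plus strand) for Pnp and chr19:21472662-21472911 (minus strand) for Gda. Those of Nt5c3, Pnp and Gda lie inside the spans that the count table gives these genes, so sequence before the outer ends of these spans is not shown.
Nt5c3: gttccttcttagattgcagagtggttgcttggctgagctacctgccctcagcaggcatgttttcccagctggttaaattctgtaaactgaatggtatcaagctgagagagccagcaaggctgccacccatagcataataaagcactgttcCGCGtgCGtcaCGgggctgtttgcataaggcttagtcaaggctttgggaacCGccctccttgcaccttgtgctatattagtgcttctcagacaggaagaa
Dck: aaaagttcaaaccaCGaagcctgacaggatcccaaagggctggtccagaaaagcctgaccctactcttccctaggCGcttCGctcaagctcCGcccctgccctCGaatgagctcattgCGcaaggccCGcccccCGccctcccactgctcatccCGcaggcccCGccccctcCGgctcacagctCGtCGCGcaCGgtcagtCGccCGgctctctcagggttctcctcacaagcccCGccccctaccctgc
Pnp: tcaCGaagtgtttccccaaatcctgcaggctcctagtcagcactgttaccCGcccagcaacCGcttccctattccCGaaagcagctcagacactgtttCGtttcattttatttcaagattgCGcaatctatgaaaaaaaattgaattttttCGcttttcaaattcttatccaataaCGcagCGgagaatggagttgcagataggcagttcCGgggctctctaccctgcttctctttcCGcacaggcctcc
Gda: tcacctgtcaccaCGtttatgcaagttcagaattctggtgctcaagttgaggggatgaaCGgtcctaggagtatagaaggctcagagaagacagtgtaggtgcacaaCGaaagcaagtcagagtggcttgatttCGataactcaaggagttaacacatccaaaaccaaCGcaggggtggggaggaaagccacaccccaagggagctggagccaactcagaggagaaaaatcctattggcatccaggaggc
The Dck window holds 18 CG pairs and that of Pnp 11, whereas those of Nt5c3 and Gda hold 5 each. With each gene taken at its richest start, the median was 16.5 over the 44 members with a RefSeq promoter, against 6 over all 27025 genes with one.

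With bacteria 6 of the 44 enzymes rose and 6 fell in KO cells, against a background of 11.6% of all tested genes that rose and 11.5% that fell. In WT cells 6 rose and 3 fell, against 10.6% and 8.07% of all tested genes. The median log2 fold change of the 44 was -0.20 in KO cells, against -0.07 over all tested genes, and -0.15 in WT cells, against -0.04. Nt5c3, Dck, Pnp, Samhd1 and Adss rose in both genotypes, and Nt5c and Uck1 fell in both. The share of all genes that passed alike in both genotypes was not counted. A fit with library number as a block within genotype paired libraries by the numbers in the labels, which do not say what a number marks. Its use rests on how libraries of the same number deviated together in these data. With that block 6 of the 44 rose and 13 fell in KO cells, and 11 rose and 10 fell in WT cells. Over all 14293 tested genes it called 4986 in KO cells and 4561 in WT cells, more than without the block. With library totals alone the median of all tested genes moved to -0.38 in KO cells and -0.35 in WT cells, and the responses of the enzymes shifted down with it.

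**Figure D2:**
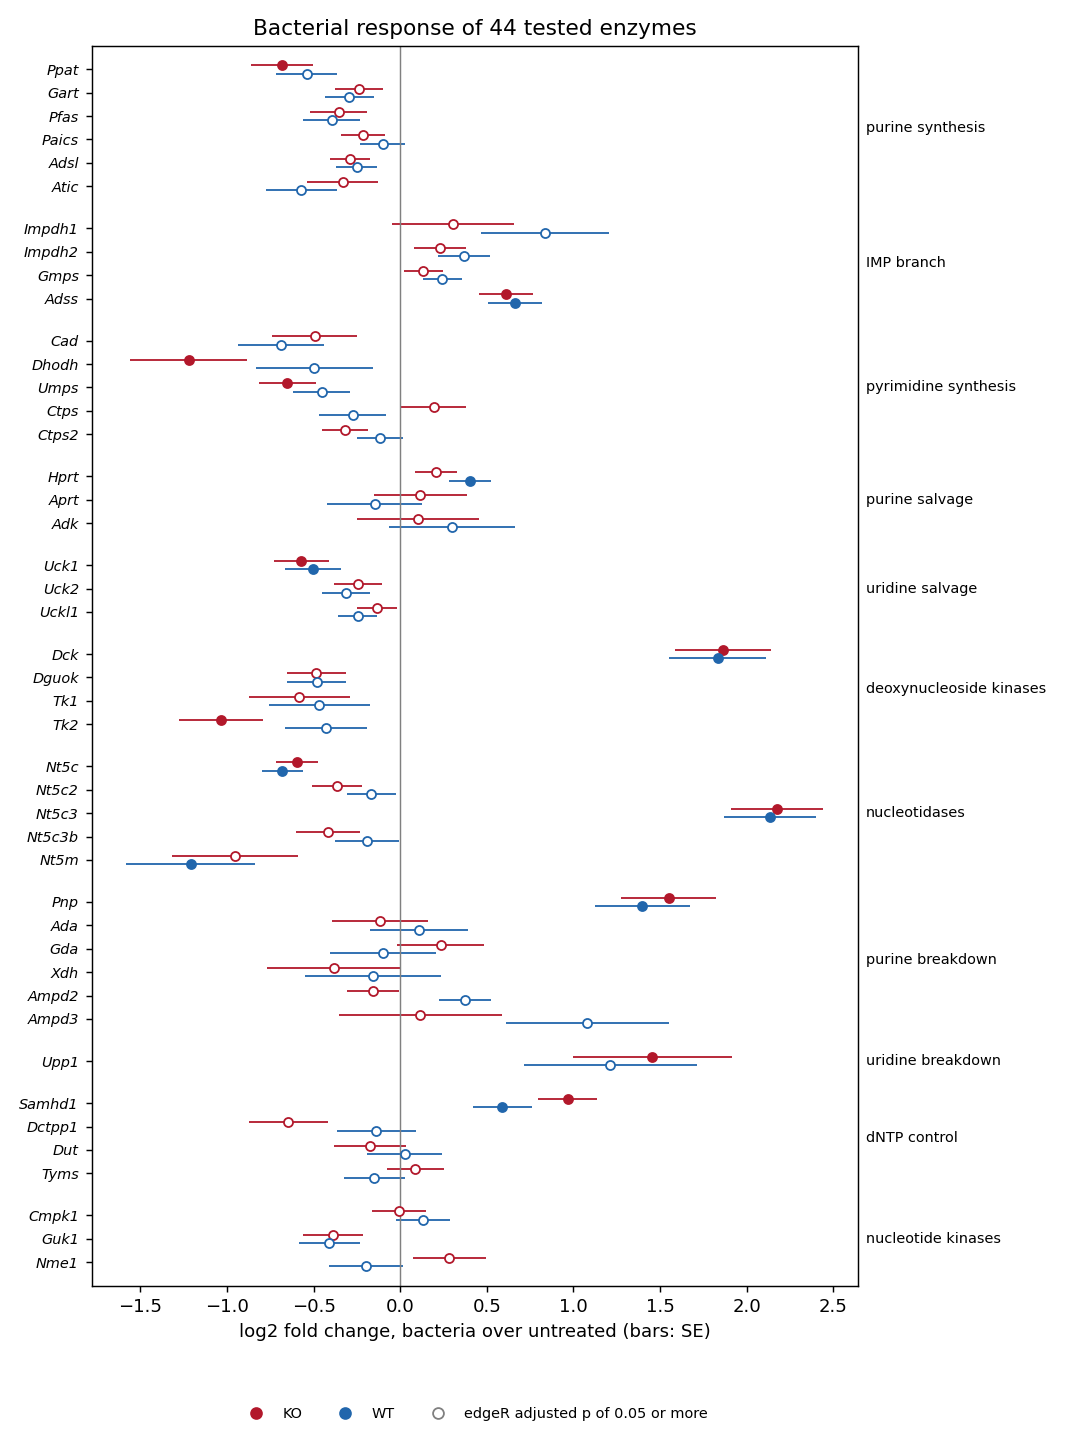
Log2 fold change of bacteria over untreated for the 44 tested enzymes, grouped by role, in KO cells (red, upper) and WT cells (blue, lower). Bars are standard errors, and filled points passed an edgeR adjusted p of 0.05. Nt5c3, Dck, Pnp and Upp1 lie beyond 1 log2 on the right in both genotypes, and nearly all points of purine and pyrimidine synthesis lie left of 0.

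Of the 6 enzymes that build the purine ring, 1 fell with bacteria in KO cells and 0 passed in WT cells. All 6 had negative log2 fold changes in each genotype, with medians of -0.31 in KO cells and -0.34 in WT cells, and this held under RLE size factors and under library totals. The member that passed was Ppat, the amidotransferase that commits precursors to purine synthesis. Ppat stood at 15.6, 11.1 and 14.6 CPM in KO cells with bacteria and 25.5, 21.1 and 19.7 CPM in untreated KO cells. WT cells had 18, 12.0 and 15.8 CPM of it with bacteria and 22.4, 22.5 and 21.7 CPM untreated. In both genotypes each library with bacteria lay below each untreated library. Ppat fell by 0.68 on the log2 scale in KO cells (SE 0.18, edgeR adjusted p = 0.0151), and its value in WT cells was -0.54 (SE 0.18, edgeR adjusted p = 0.0504). The KO call was lost without KO library 2 with bacteria, or untreated KO library 1 (log2 -0.54, adjusted p from 0.0692 to 0.0741). With the block within genotype, edgeR also called Ppat in WT cells at -0.56 (adjusted p = 0.0119). The same fit called Atic, which closes the ring, at -0.36 (adjusted p = 0.0273) in KO cells and -0.56 (adjusted p = 0.00229) in WT cells. The other 4 were Gart, Pfas, Paics and Adsl, with log2 fold changes from -0.35 to -0.22 in KO cells and -0.40 to -0.10 in WT cells, none of which passed. Ppat and Paics lie head to head and share 272 bases on opposite strands, where reads cannot be told apart if counting ignored strand, and no source used here gives the strand setting.

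At the branch point after IMP 1 of 4 enzymes rose in each genotype. Impdh1, Impdh2, Gmps and Adss all had positive log2 fold changes in both genotypes, with medians of 0.27 in KO cells and 0.51 in WT cells. Under library totals 1 of 4 in WT cells and 3 of 4 in KO cells were negative, and the KO median turned to -0.05. Adss, which takes IMP towards AMP, was the member of this branch that passed. It stood at 117, 168 and 121 CPM in KO cells with bacteria and 91.1, 94.5 and 81.1 CPM in untreated KO cells. In WT cells it had 160.0, 202 and 205 CPM with bacteria and 108, 113 and 137 CPM untreated. All 6 libraries with bacteria lay above the untreated libraries of their genotype. Adss rose by 0.61 (SE 0.16, edgeR adjusted p = 0.0137) log2 in KO cells and 0.66 (SE 0.16, edgeR adjusted p = 0.0116) log2 in WT cells. In edgeR the KO call was lost with library totals alone (0.29, adjusted p = 0.130) and without KO library 2 with bacteria, or untreated KO library 3 (log2 0.43 to 0.56, adjusted p from 0.0528 to 0.0671). The WT call was lost in edgeR with library totals alone (0.34, adjusted p = 0.0848) and without untreated WT library 1 or 2 (log2 0.57 to 0.60, adjusted p from 0.0532 to 0.0581). Impdh1 and Impdh2, the paired isozymes that commit IMP to GMP, had 0.84 and 0.37 log2 in WT cells without passing, and edgeR called both with the block within genotype, at 0.80 (adjusted p = 0.000553) and 0.37 (adjusted p = 0.0106).

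In pyrimidine synthesis 2 of 5 enzymes fell in KO cells and 0 passed in WT cells. With bacteria 4 of 5 enzymes in KO cells and 5 of 5 in WT cells had negative values, with medians of -0.49 and -0.45 log2. Dhodh, the mitochondrial enzyme that oxidises dihydroorotate, had 1.5, 1.51 and 2.59 CPM in KO cells with bacteria and 2.84, 4.02 and 6.12 CPM in untreated KO cells. In WT cells it had 1.77, 2.50 and 1.94 CPM with bacteria and 2.55, 2.87 and 3.35 CPM untreated. It was lower in each library with bacteria than in any untreated library of its genotype. Dhodh fell by 1.22 log2 in KO cells (SE 0.34, edgeR adjusted p = 0.0207), with -0.50 (SE 0.34, edgeR adjusted p = 0.329) in WT cells. In edgeR that KO call was lost with only the groups compared in the fit (-1.19, adjusted p = 0.0643) and without KO library 1 or 2 with bacteria, or untreated KO library 3 (log2 -1.08 to -0.87, adjusted p from 0.0643 to 0.118). Umps, which completes UMP, stood at 10.5, 11.7 and 12.5 CPM in KO cells with bacteria and 15.9, 20.5 and 18.3 CPM in untreated KO cells. WT cells had 11.8, 10.1 and 10.9 CPM with bacteria and 18, 13.9 and 12.8 CPM untreated, again with no overlap in either genotype. Umps fell by 0.65 log2 in KO cells (SE 0.16, edgeR adjusted p = 0.0131), a call lost without untreated KO library 2 (log2 -0.55, adjusted p = 0.0678), and had -0.45 (SE 0.16, edgeR adjusted p = 0.0744) in WT cells. With the block within genotype edgeR called Umps in WT cells at -0.44 (adjusted p = 0.0346). Cad, the enzyme that starts the route, was called by that fit at -0.49 (adjusted p = 0.0364) in KO cells and -0.76 (adjusted p = 0.00432) in WT cells, and by the fit without a block in neither. Ctps and Ctps2, which make CTP from UTP, did not pass in either genotype, and Ctps had a positive value in KO cells (0.19 log2) that turned negative under library totals.

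Among salvage enzymes 1 of 3 for purines, Hprt, and 1 of 3 for uridine and cytidine, Uck1, passed in at least 1 genotype. Hprt stood at 58.4, 63.1 and 63.8 CPM in KO cells with bacteria and 50.8, 54.9 and 55.0 CPM in untreated KO cells. Levels in WT cells were 60.2, 80.6 and 62.3 CPM with bacteria and 49.9, 47.6 and 56.2 CPM untreated, and the groups did not overlap in either genotype. Hprt rose by 0.40 (SE 0.12, edgeR adjusted p = 0.0369) log2 in WT cells, and its value in KO cells was 0.20 (SE 0.12, edgeR adjusted p = 0.253). In edgeR the WT call was lost with library totals alone (0.08, adjusted p = 0.606), with no filter on low counts (0.38, adjusted p = 0.0782), with only the groups compared in the fit (0.40, adjusted p = 0.0756), without the 4 libraries numbered 1 (0.46, adjusted p = 0.0667), and without KO library 2 with bacteria, or untreated KO library 1, 2 or 3, or WT library 2 with bacteria, or untreated WT library 1, 2 or 3 (log2 0.25 to 0.45, adjusted p from 0.0519 to 0.168). Without WT library 2 with bacteria it was 0.25 log2 (edgeR adjusted p = 0.130). Aprt, which salvages adenine, and Adk, which phosphorylates adenosine, had values from -0.15 to 0.30 log2 over the genotypes and did not pass. All 3 kinases that phosphorylate uridine and cytidine had negative values in both genotypes, under each scaling, and Uck1 passed in both. Uck1 had 19.8, 16 and 23.1 CPM in KO cells with bacteria and 27.5, 30.1 and 29.8 CPM in untreated KO cells. WT cells had 24.4, 16.9 and 19.4 CPM of it with bacteria and 29.7, 30.0 and 26.1 CPM untreated. Each library with bacteria lay below each untreated one of its genotype. Uck1 fell by 0.57 log2 in KO cells (SE 0.16, edgeR adjusted p = 0.0226) and by 0.50 in WT cells (SE 0.16, edgeR adjusted p = 0.0462). In edgeR the KO call was lost without both KO libraries numbered 1 (-0.61, adjusted p = 0.0607), without the 4 libraries numbered 1 (-0.62, adjusted p = 0.0512) and without KO library 2 with bacteria, or untreated KO library 2 or 3 (log2 -0.54 to -0.44, adjusted p from 0.0743 to 0.101). The WT call was lost in edgeR with RLE size factors (-0.48, adjusted p = 0.0518), with only the groups compared in the fit (-0.51, adjusted p = 0.0612), without both KO libraries numbered 1 (-0.51, adjusted p = 0.0540), without the 4 libraries numbered 1 (-0.63, adjusted p = 0.0548), and without untreated KO library 2, or WT library 2 or 3 with bacteria, or untreated WT library 1, 2 or 3 (log2 -0.59 to -0.39, adjusted p from 0.0544 to 0.146). Uck2 was called in WT cells with the block within genotype, at -0.32 (adjusted p = 0.0255) in edgeR.

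Dck, which phosphorylates deoxycytidine, deoxyadenosine and deoxyguanosine, rose the most after Nt5c3. Dck (ENSMUSG00000029366, mm10 chr5:88764996-88783281, plus strand) stood at 73.2, 167 and 166 CPM in KO cells with bacteria and 30.9, 40.0 and 40.9 CPM in untreated KO cells. In WT cells it had 63.0, 78.0 and 77.7 CPM with bacteria and 20.2, 25.1 and 16.1 CPM untreated. KO library 1 was the lowest of the KO libraries with bacteria, and no library with bacteria overlapped the untreated ones of its genotype. Dck rose by 1.86 (SE 0.28, edgeR adjusted p = 0.000561) log2 in KO cells and 1.83 (SE 0.28, edgeR adjusted p = 0.000983) log2 in WT cells. The mitochondrial kinase of thymidine and deoxycytidine, Tk2, moved the other way. Tk2 stood at 11.5, 8.18 and 11.4 CPM in KO cells with bacteria and 19.2, 20.6 and 23.8 CPM in untreated KO cells, with no overlap. WT cells had 18.3, 9.07 and 10.9 CPM with bacteria and 19.9, 15.4 and 16.1 CPM untreated, with library 1 with bacteria inside the untreated range. Tk2 fell by 1.03 log2 in KO cells (SE 0.24, edgeR adjusted p = 0.00853) and had -0.43 (SE 0.24, edgeR adjusted p = 0.231) in WT cells, where edgeR called it with the block within genotype at -0.47 (adjusted p = 0.0395) and, without WT library 1 with bacteria, at -0.78 (adjusted p = 0.0224). Dguok, the mitochondrial kinase of deoxyguanosine, did not pass without the block, and that fit called it at -0.47 (adjusted p = 0.0444) in KO cells and -0.48 (adjusted p = 0.0462) in WT cells in edgeR. Library totals alone also called it in both genotypes, at -0.80 log2 in each (edgeR adjusted p = 0.00426 in KO cells and 0.00554 in WT cells). Tk1, the thymidine kinase of dividing cells, had -0.58 and -0.47 log2 in KO and WT cells and passed in neither. Without KO library 1 with bacteria edgeR called its fall in KO cells, at -1.08 log2 (adjusted p = 0.00356), and without both KO libraries numbered 1 at -1.03 log2 (adjusted p = 0.00931).

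Nucleotidases, which remove the phosphate again, held members that rose and members that fell, and among them was the largest rise of the 44. Nt5c3 (ENSMUSG00000029780, mm10 chr6:56882400-56923932, minus strand), known in red blood cells for clearing pyrimidine monophosphates, stood at 74.7, 139 and 159 CPM in KO cells with bacteria and 26.0, 26.3 and 30.4 CPM in untreated KO cells. WT cells had 76.3, 121 and 96.8 CPM with bacteria and 18.9, 27.9 and 20.1 CPM untreated. Even the lowest library with bacteria lay far above the highest untreated one. Nt5c3 rose by 2.17 (SE 0.27, edgeR adjusted p = 0.000133) log2 in KO cells and 2.14 (SE 0.27, edgeR adjusted p = 0.000232) log2 in WT cells, the largest values among the 44 in each genotype. Nt5c stood at 32.3, 32.0 and 32.9 CPM in KO cells with bacteria and 44.8, 53.6 and 48.5 CPM in untreated KO cells. In WT cells it had 35.5, 28.1 and 32.6 CPM with bacteria and 45.3, 56.2 and 52.4 CPM untreated, and the groups were apart in both genotypes. Nt5c fell by 0.60 log2 in KO cells (SE 0.12, edgeR adjusted p = 0.00371) and by 0.68 in WT cells (SE 0.12, edgeR adjusted p = 0.00229). Its mitochondrial relative Nt5m had 2.16, 2.26 and 1.40 CPM in KO cells with bacteria and 4.01, 3.39 and 3.94 CPM in untreated KO cells. WT cells had 2.33, 0.755 and 1.14 CPM of it with bacteria and 3.30, 2.72 and 3.63 CPM untreated. Both genotypes were lower with bacteria in every library, on 13 to 83 counts per library. Nt5m fell by 1.21 log2 in WT cells (SE 0.37, edgeR adjusted p = 0.0403) and had -0.96 (SE 0.36, edgeR adjusted p = 0.0775) in KO cells, where the block within genotype gave -0.97 (adjusted p = 0.0377) in edgeR. In edgeR the WT call was lost with only the groups compared in the fit (-1.21, adjusted p = 0.0812), without both KO libraries numbered 1 (-1.21, adjusted p = 0.0516), and without KO library 2 with bacteria, or untreated KO library 2 or 3, or WT library 2 or 3 with bacteria, or untreated WT library 1, 2 or 3 (log2 -1.34 to -0.91, adjusted p from 0.0506 to 0.122). Nt5m shares 392 bases on the opposite strand with Cops3, whose mean level was 670% of its own. Nt5c2, which prefers IMP and GMP, was called in KO cells by the block within genotype at -0.38 (adjusted p = 0.00821) in edgeR, and Nt5c3b by neither fit.

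**Figure D3:**
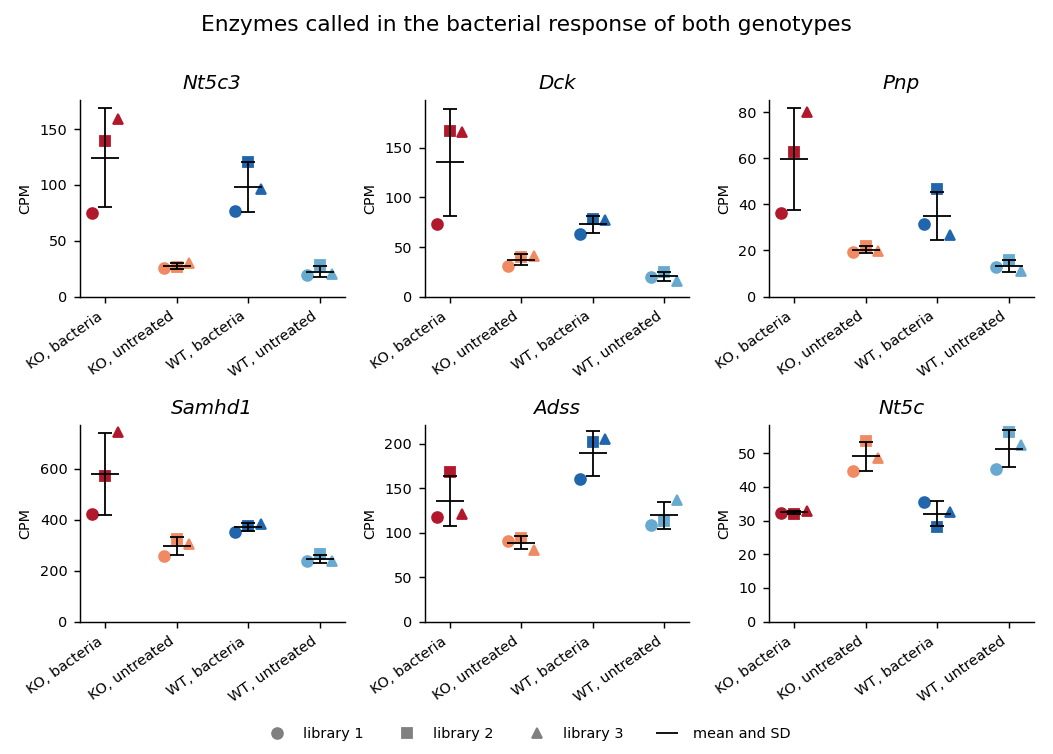
CPM of 6 enzymes called in the bacterial response of both genotypes, per library (marker shape gives the library number), with the mean and SD of 3 libraries as black lines. Nt5c3, Dck, Pnp, Samhd1 and Adss are higher and Nt5c is lower with bacteria, with no overlap within a genotype, and KO library 1 with bacteria is the lowest of its group for Nt5c3, Dck, Pnp and Samhd1.

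In purine breakdown 1 of 6 enzymes, the phosphorylase Pnp, rose in each genotype and 0 fell, against the shares of 11.6% in KO cells and 10.6% in WT cells that rose over all genes. The medians of the 6 were 0.00 log2 in KO cells and 0.24 log2 in WT cells, and the WT median turned to -0.07 under library totals. Pnp (ENSMUSG00000115338, mm10 chr14:50931082-50965237, plus strand), which cleaves inosine and guanosine to free bases, stood at 36.1, 62.7 and 80.0 CPM in KO cells with bacteria and 19.3, 22.0 and 19.6 CPM in untreated KO cells. WT cells had 31.3, 46.7 and 26.9 CPM with bacteria and 12.6, 16 and 11.1 CPM untreated. All libraries with bacteria were above all untreated ones of either genotype. Pnp rose by 1.55 (SE 0.27, edgeR adjusted p = 0.00172) log2 in KO cells and 1.40 (SE 0.28, edgeR adjusted p = 0.00488) log2 in WT cells. A near-identical copy, Pnp2, overlaps Pnp over 8758 bases on the same strand and had 3.68% of its level, so reads could be split between them. The deaminases Ada, Gda, Ampd2 and Ampd3 and the oxidase Xdh, which ends the route at uric acid, did not pass in either genotype. With the block within genotype edgeR called Ampd2 at 0.37 (adjusted p = 0.0233) and Ampd3 at 0.98 (adjusted p = 0.00140) in WT cells and Xdh at -0.40 (adjusted p = 0.0382) in KO cells. Ampd3 shares 11974 bases on the opposite strand with Rnf141, whose mean level was 165% of its own. On the pyrimidine side, Upp1, which cleaves uridine to uracil, had 4.91, 7.66 and 4.49 CPM in KO cells with bacteria and 2.56, 1.57 and 2.09 CPM in untreated KO cells, with no overlap. WT cells had 0.918, 2.91 and 1.71 CPM with bacteria and 0.426, 1.38 and 0.567 CPM untreated, with overlapping ranges on as few as 8 counts in a library. Upp1 rose by 1.46 (SE 0.46, edgeR adjusted p = 0.0381) log2 in KO cells, and its value in WT cells was 1.21 (SE 0.50, edgeR adjusted p = 0.110), which edgeR called with the block within genotype at 1.24 (adjusted p = 0.0258) and, without untreated WT library 2, at 1.87 (adjusted p = 0.0465). In edgeR the KO call was lost with library totals alone (1.14, adjusted p = 0.0584), without both KO libraries numbered 1 (1.74, adjusted p = 0.0587) and without KO library 2 with bacteria, or untreated KO library 1, 2 or 3 (log2 1.18 to 1.66, adjusted p from 0.0508 to 0.147).

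Among enzymes that set the deoxynucleotide pool, Samhd1 rose in both genotypes. Samhd1 (ENSMUSG00000027639, mm10 chr2:157097533-157135265, minus strand), which cuts deoxynucleoside triphosphates to nucleosides and restricts some viruses, stood at 422, 570.4 and 746 CPM in KO cells with bacteria and 257, 326 and 306 CPM in untreated KO cells. Its levels in WT cells were 352, 375 and 384 CPM with bacteria and 237, 264 and 238 CPM untreated, and neither genotype overlapped. Samhd1 rose by 0.97 (SE 0.17, edgeR adjusted p = 0.00153) log2 in KO cells and 0.59 (SE 0.17, edgeR adjusted p = 0.0307) log2 in WT cells. In edgeR the WT call was lost with library totals alone (0.27, adjusted p = 0.196) and without WT library 2 or 3 with bacteria, or untreated WT library 1, 2 or 3 (log2 0.54 to 0.62, adjusted p from 0.0659 to 0.0999). Tyms, which makes dTMP, Dut, which clears dUTP, and Dctpp1, which hydrolyses dCTP, did not pass in either genotype, and Dctpp1 was called in KO cells by the block within genotype at -0.64 (adjusted p = 0.0465) in edgeR. The nucleotide kinases Cmpk1, Guk1 and Nme1 had values from -0.39 to 0.28 log2 in KO cells and -0.41 to 0.13 log2 in WT cells, and none passed. All 15 interferon-response genes listed beside the enzymes rose in both genotypes, with a median of 4.94 log2 in KO cells and 4.44 log2 in WT cells. The smallest values of that list were 1.5 log2 in KO cells and 1.73 log2 in WT cells, and of the 44 enzymes Nt5c3 and Dck exceeded both.

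In both settings more of the enzymes were higher than lower in KO cells, and the same held for all tested genes. Untreated, 5 of the 44 were higher and 0 lower in KO cells, against 9.5% and 3.46% of all tested genes. With bacteria 10 were higher and 2 lower, against 9.21% and 4.89%. The medians of the 44 were 0.17 log2 untreated and 0.12 log2 with bacteria, where all tested genes had 0.01 and -0.01. Gda, Impdh1, Adk, Tyms and Dut were higher in both settings. How many of all tested genes were higher in both was not counted. Untreated, DESeq2 called 8 enzymes and edgeR with only those 6 libraries called 11, and the shares of all genes called by these fits are not given here. Both fits added Adss as lower, at -0.46 log2 in DESeq2 (adjusted p = 0.0464). The edgeR fit of those 6 libraries also added Nt5c2 and Tk1 as lower, at -0.38 and -0.40 log2 (adjusted p = 0.0387 and 0.0286). The 4 comparisons share libraries in pairs and are not independent of each other.

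**Figure D4:**
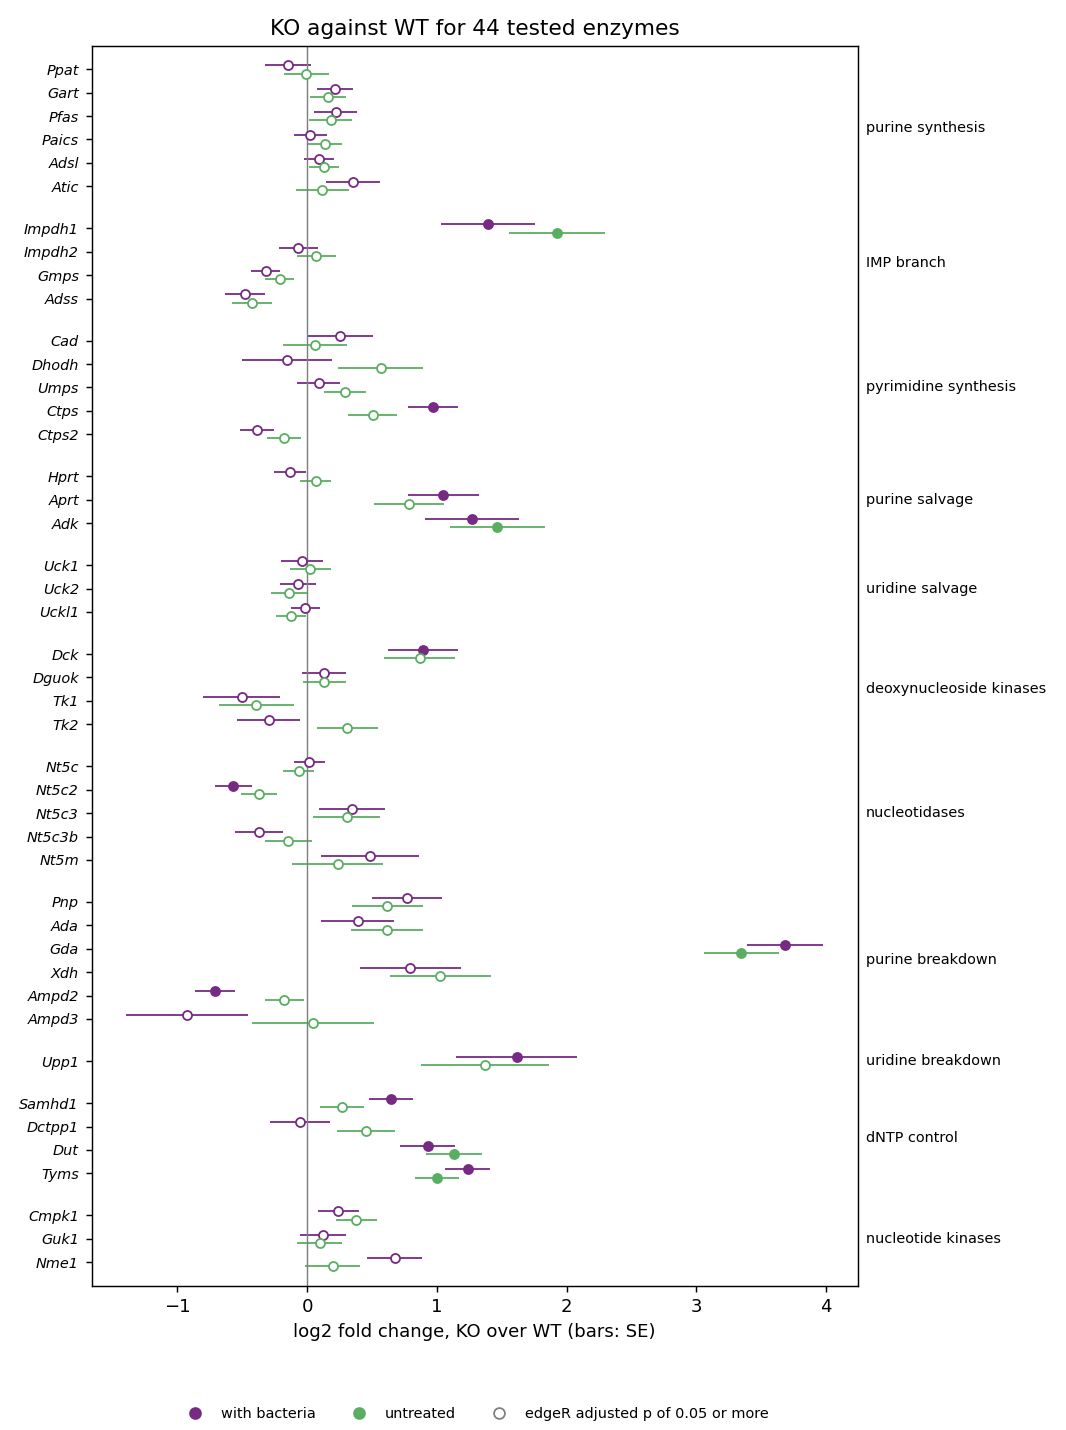
Log2 fold change of KO over WT for the 44 tested enzymes, grouped by role, with bacteria (purple, upper) and untreated (green, lower). Bars are standard errors, and filled points passed an edgeR adjusted p of 0.05. Gda lies beyond 3 log2 in both settings, and Ampd2 and Nt5c2 are the filled points left of 0.

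Markers of some other cell types and of dividing cells were also higher in KO libraries. Of 7 erythroid markers all 7 were higher in KO cells in both settings, and their summed level was 1898 to 5205 CPM in KO libraries with bacteria and 1888 to 4037 CPM in untreated KO libraries. In WT libraries that sum was 3.18 to 10.3 CPM with bacteria and 2.82 to 10.2 CPM untreated. Of 10 markers of red pulp macrophages 9 were higher in KO cells with bacteria and 8 untreated, summing to 1056 to 3648 and 1152 to 3551 CPM in KO libraries, against 357 to 663 and 527 to 991 CPM in WT libraries. Neutrophil markers were higher for 6 and 7 of 9, with 91.5 to 1137 CPM in KO libraries with bacteria and 61.8 to 810.3 CPM untreated, against 11.7 to 20.5 and 8.36 to 13.2 CPM in WT libraries. Monocyte markers were higher for 2 and 5 of 6, with 18.1 to 95 and 16.4 to 80.7 CPM in KO libraries, against 7.73 to 10.6 and 6.92 to 10.0 CPM in WT libraries. Of 24 genes of DNA replication and mitosis, 16 were higher in KO cells in each setting, with 1179 to 1479 and 1228 to 1437 CPM in KO libraries, against 867 to 1071 and 648 to 841 CPM in WT libraries. Among markers of B, T, NK and plasmacytoid dendritic cells 0 passed in either setting, with only 1 NK marker tested. Of 10 cDC1 markers 1 was higher in KO cells with bacteria and 2 untreated. Of 8 tested cDC2 markers 1 and 2 were higher, while the list medians were -0.24 and -0.50 log2. Of the 5 dendritic cell markers named further above, 2 were lower and 0 higher in KO cells in each setting. The medians of those 5 were -0.46 log2 with bacteria and -0.51 log2 untreated. No marker in these lists was at 0 in all libraries. In bulk RNA, fewer cells of a type and less RNA per cell cannot be told apart, and the part of these cell types in the differences below was not tested.

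The largest difference of all 44 was in Gda, which deaminates guanine to xanthine. Gda (ENSMUSG00000058624, mm10 chr19:21391307-21473445, minus strand) stood at 16.7, 24.5 and 20.5 CPM in KO cells with bacteria, against 1.27, 1.28 and 2.18 CPM in WT cells with bacteria. In untreated cells Gda had 14.3, 23.5 and 14.7 CPM in KO, against 2.13, 1.49 and 1.53 CPM in WT. The WT levels of Gda rested on as few as 18 counts in a library, which makes the size of the difference less certain. Every KO library was several times above every WT library, and library 2 was the highest KO library in both settings. The summed neutrophil and monocyte markers were highest in KO library 2 as well. They were lowest in KO library 3 in both settings, whereas Gda was lowest in KO library 1, and the part of those cells was not tested. The log2 difference was 3.68 (SE 0.29, edgeR adjusted p = 5.57e-05) with bacteria and 3.35 (SE 0.29, edgeR adjusted p = 0.000107) untreated, and it was kept under every alternative tried. Elsewhere in purine breakdown, Ampd2, a deaminase that turns AMP into IMP, was lower in KO cells with bacteria. Ampd2 had 21.7, 20.5 and 19.7 CPM in KO cells with bacteria, against 34.8, 28.2 and 38.4 CPM in WT cells with bacteria, with no overlap. Untreated KO cells had 26.9, 21.3 and 21.1 CPM, against 26.0, 22.8 and 29.4 CPM in untreated WT cells, with overlapping ranges. Its log2 difference was -0.71 (SE 0.15, edgeR adjusted p = 0.00924) with bacteria and -0.18 (SE 0.15, edgeR adjusted p = 0.509) untreated. Xdh stood at 20.8, 24.9 and 15.3 CPM in KO cells with bacteria, against 20.3, 7.79 and 7.34 CPM in WT cells, and at 29.5, 28.0 and 22.1 CPM in untreated KO cells, against 19.7, 10.5 and 8.85 CPM in untreated WT cells, and it did not pass. In both WT groups library 1 was the highest for Xdh, and without the 4 libraries numbered 1 edgeR called Xdh at 1.41 log2 with bacteria (adjusted p = 0.00566) and 1.37 log2 untreated (adjusted p = 0.00657).

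In the IMP branch 1 of 4 enzymes, Impdh1, passed as higher in KO cells in each setting. Impdh1 (ENSMUSG00000003500, mm10 chr6:29200434-29216364, minus strand) stood at 29.0, 53.0 and 66.4 CPM in KO cells with bacteria, against 28.4, 14.1 and 14.3 CPM in WT cells with bacteria. Without bacteria KO cells had 28.8, 37.0 and 54.3 CPM, against 13.8, 8.15 and 9.64 CPM in WT cells. With bacteria KO library 1 was barely above WT library 1, while untreated groups were well apart. The log2 difference was 1.39 (SE 0.36, edgeR adjusted p = 0.0258) with bacteria and 1.93 (SE 0.37, edgeR adjusted p = 0.00556) untreated. In edgeR the call with bacteria was lost with no filter on low counts (1.40, adjusted p = 0.110) and without KO library 2 or 3 with bacteria, or WT library 2 or 3 with bacteria (log2 1.12 to 1.33, adjusted p from 0.0735 to 0.115). Its isozyme Impdh2 had -0.07 and 0.07 log2 with and without bacteria and did not pass. Adss, with levels given above, had -0.48 (SE 0.15, edgeR adjusted p = 0.0578) with bacteria. DESeq2 called it lower there, at -0.49 log2 (adjusted p = 0.0296), as did edgeR with no filter, with the replicate block, with a term for libraries numbered 1 and without KO library 2 or WT library 1 with bacteria, at -0.67 to -0.47 log2. Gmps was called lower with bacteria by DESeq2, at -0.32 log2 (adjusted p = 0.0465).

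Adk, the kinase of adenosine, was higher in KO cells in both settings and Aprt with bacteria, and KO library 3 was the highest for both enzymes. Adk had 15.5, 18.9 and 28.9 CPM in KO cells with bacteria, against 7.13, 13.9 and 5.12 CPM in WT cells with bacteria. In the untreated setting it had 15.2, 17.8 and 25.8 CPM in KO cells, against 6.97, 8.77 and 5.50 CPM in WT cells. Neither setting overlapped. The log2 difference of Adk was 1.27 (SE 0.36, edgeR adjusted p = 0.0367) with bacteria and 1.47 (SE 0.36, edgeR adjusted p = 0.0204) untreated. With bacteria the edgeR call was lost with no filter on low counts (1.28, adjusted p = 0.0920), with only the groups compared in the fit (1.28, adjusted p = 0.0782), without the 4 libraries numbered 1 (1.33, adjusted p = 0.0777), and without KO library 2 or 3 with bacteria, or untreated KO library 2, or WT library 1 or 3 with bacteria, or untreated WT library 1 (log2 0.98 to 1.34, adjusted p from 0.0557 to 0.149). The untreated call was lost in edgeR with no filter on low counts (1.46, adjusted p = 0.0578), without the 4 libraries numbered 1 (1.61, adjusted p = 0.0532), and without untreated KO library 2 or 3, or untreated WT library 1 or 3 (log2 1.17 to 1.49, adjusted p from 0.0530 to 0.111). Aprt had 21.4, 36.7 and 42.2 CPM in KO cells with bacteria, against 15.2, 16.8 and 16.5 CPM in WT cells with bacteria. Without bacteria Aprt was at 19.1, 34.4 and 39.1 CPM in KO cells, against 20.8, 15.6 and 17.3 CPM in WT cells. KO library 1 was close to the WT libraries and the other KO libraries were well above them. For Aprt the log2 difference was 1.05 (SE 0.27, edgeR adjusted p = 0.0260) with bacteria and 0.79 (SE 0.27, edgeR adjusted p = 0.0817) untreated. The edgeR call with bacteria was lost without KO library 2 or 3 with bacteria, or WT library 1, 2 or 3 with bacteria (log2 0.85 to 1.08, adjusted p from 0.0583 to 0.103). Without both KO libraries numbered 1, edgeR called Aprt untreated as well, at 1.02 log2 (adjusted p = 0.000766). The summed erythroid and red pulp macrophage markers had the same order, with KO library 1 lowest and KO library 3 highest in both settings, and the part of those cells was not tested. Hprt, the other purine salvage enzyme, had -0.13 log2 with bacteria and 0.07 untreated.

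Tyms and Dut, which make dTMP and its precursor dUMP, were higher in KO cells in both settings. Tyms stood at 10.5, 12.6 and 11.2 CPM in KO cells with bacteria, against 4.73, 5.06 and 4.79 CPM in WT cells with bacteria. In untreated cells Tyms was at 11.3, 11.9 and 9.10 CPM in KO, against 5.91, 5.59 and 4.65 CPM in WT. No KO library overlapped a WT library. The log2 difference of Tyms was 1.24 (SE 0.17, edgeR adjusted p = 0.00105) with bacteria and 1.00 (SE 0.17, edgeR adjusted p = 0.00290) untreated, kept under every alternative tried. Dut had 8.81, 11.2 and 8.69 CPM in KO cells with bacteria, against 5.44, 5.99 and 3.70 CPM in WT cells with bacteria. Untreated KO cells had 11.5, 11.3 and 9.58 CPM, against 5.75, 4.51 and 4.54 CPM in untreated WT cells, and again all KO libraries were above all WT libraries. The log2 difference of Dut was 0.93 (SE 0.21, edgeR adjusted p = 0.0138) with bacteria and 1.13 (SE 0.21, edgeR adjusted p = 0.00459) untreated. With bacteria the edgeR call for Dut was lost with only the groups compared in the fit (0.94, adjusted p = 0.0625) and without KO library 2 with bacteria, or WT library 3 with bacteria (log2 0.74 to 0.79, adjusted p from 0.0561 to 0.0691). The replication genes listed above were higher in KO cells too, and their part was not tested. Tk1, which dividing cells also use, had -0.51 (SE 0.29, edgeR adjusted p = 0.275) with bacteria and -0.39 (SE 0.29, edgeR adjusted p = 0.444) untreated. Without both KO libraries numbered 1, edgeR called Tk1 lower with bacteria at -1.01 log2 (adjusted p = 0.00754).

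**Figure D5:**
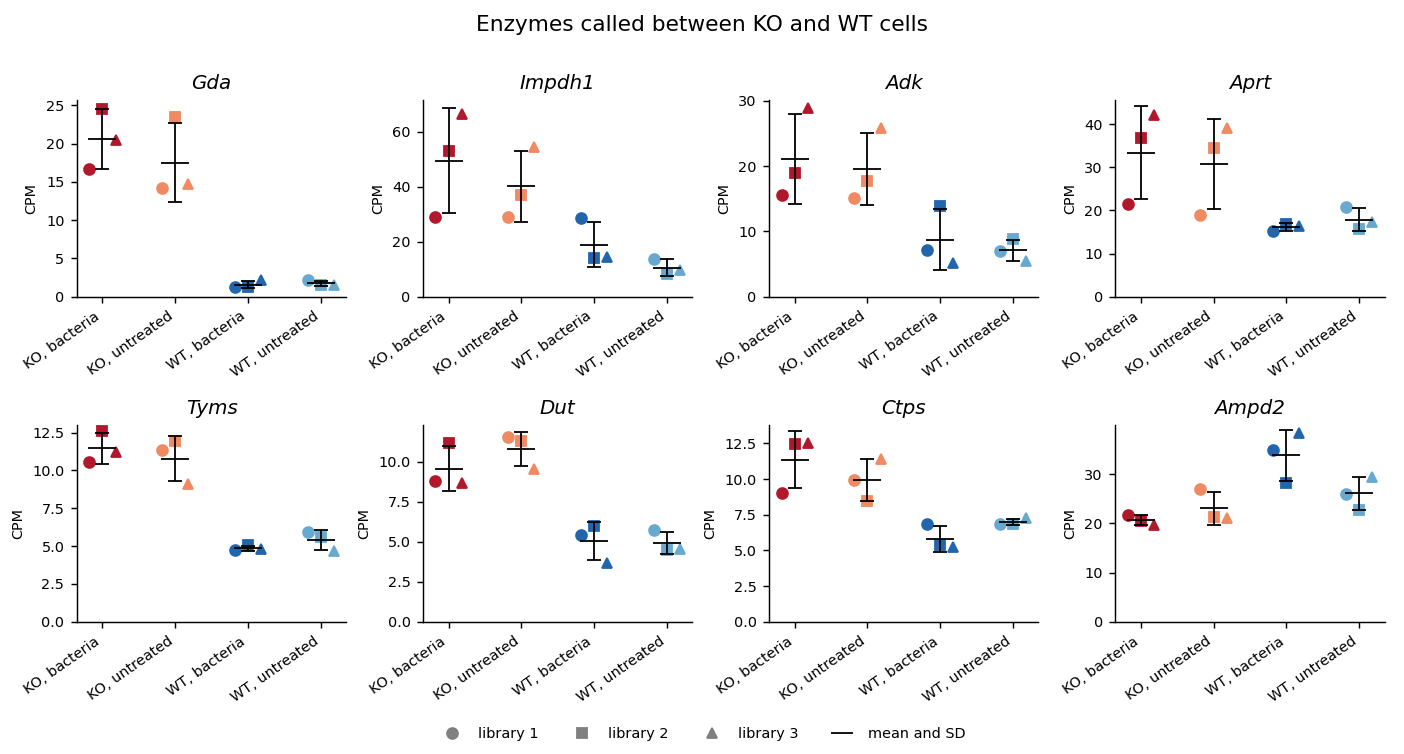
CPM of 8 enzymes called between genotypes, per library (marker shape gives the library number), with the mean and SD of 3 libraries as black lines. All panels but Ampd2 show higher KO levels, with KO library 1 the lowest and KO library 3 the highest for Impdh1, Adk and Aprt, and Gda, Impdh1, Adk, Tyms, Dut and Ctps show no overlap in either setting.

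A further 5 enzymes passed between genotypes with bacteria and not untreated, which does not show that the settings differ. Ctps had 9.05, 12.5 and 12.5 CPM in KO cells with bacteria, against 6.85, 5.35 and 5.21 CPM in WT cells with bacteria. Untreated KO cells had 9.92, 8.46 and 11.4 CPM, against 6.87, 6.87 and 7.26 CPM in untreated WT cells, with no overlap in either setting. The log2 difference of Ctps was 0.97 (SE 0.19, edgeR adjusted p = 0.00661) with bacteria and 0.50 (SE 0.19, edgeR adjusted p = 0.106) untreated. Upp1 and Samhd1, with the values given above, were higher in every KO library than in any WT library with bacteria. Upp1 differed by 1.61 (SE 0.46, edgeR adjusted p = 0.0371) log2 with bacteria, and by 1.37 (SE 0.50, edgeR adjusted p = 0.0941) untreated. In edgeR the call of Upp1 with bacteria was lost with only the groups compared in the fit (1.63, adjusted p = 0.0559), without the 4 libraries numbered 1 (1.41, adjusted p = 0.0727), and without KO library 2 or 3 with bacteria, or untreated KO library 2, or WT library 1 or 3 with bacteria (log2 1.31 to 1.76, adjusted p from 0.0511 to 0.142). Samhd1 differed by 0.65 (SE 0.17, edgeR adjusted p = 0.0258) log2 with bacteria, and by 0.27 (SE 0.17, edgeR adjusted p = 0.357) untreated. In edgeR the call of Samhd1 with bacteria was lost with only the groups compared in the fit (0.65, adjusted p = 0.0758), and without KO library 2 or 3 with bacteria, or WT library 1, 2 or 3 with bacteria (log2 0.42 to 0.67, adjusted p from 0.0595 to 0.105), with the lowest value, 0.42 log2, without KO library 3 with bacteria. Dck differed by 0.89 (SE 0.27, edgeR adjusted p = 0.0464) log2 with bacteria, where KO library 1 lay among the WT libraries, and by 0.87 (SE 0.28, edgeR adjusted p = 0.0610) untreated. That call of Dck was, in edgeR, lost with no filter on low counts (0.91, adjusted p = 0.143), with only the groups compared in the fit (0.90, adjusted p = 0.0914), and without KO library 2 or 3 with bacteria, or untreated KO library 1, 2 or 3, or WT library 1, 2 or 3 with bacteria, or untreated WT library 1, 2 or 3 (log2 0.71 to 0.95, adjusted p from 0.0515 to 0.177). Nt5c2 was lower, with 55.2, 40.5 and 38.0 CPM in KO cells with bacteria, against 73.0, 65.3 and 60.2 CPM in WT cells with bacteria. Untreated KO cells had 64.4, 54.5 and 53.2 CPM of it, against 74.9, 76.0 and 72.0 CPM in untreated WT cells. All KO libraries lay below all WT libraries in each setting. The log2 difference of Nt5c2 was -0.57 (SE 0.14, edgeR adjusted p = 0.0206) with bacteria and -0.37 (SE 0.14, edgeR adjusted p = 0.109) untreated. In edgeR the call with bacteria was lost with library totals alone (-0.47, adjusted p = 0.0729), with only the groups compared in the fit (-0.56, adjusted p = 0.0997), and without KO library 2 or 3 with bacteria, or WT library 1 with bacteria (log2 -0.51 to -0.47, adjusted p from 0.0640 to 0.0903). In either setting purine and pyrimidine synthesis up to IMP and UMP had no member that passed, with values from -0.16 to 0.35 log2 over Ppat, Gart, Pfas, Paics, Adsl, Atic, Cad, Dhodh and Umps with bacteria. Without KO library 1 with bacteria edgeR called Atic higher, at 0.56 log2 (adjusted p = 0.0436).

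Whether the response itself differed between genotypes was tested as the KO response minus the WT response. None of the 44 enzymes passed in edgeR, and 0% of the 14293 genes did. An unadjusted edgeR p under 0.05 was reached by 608 of the 14293 genes and 1 of the 44 enzymes. That is no more than this cutoff lets through without any difference. DESeq2 called 6 genes and none of the enzymes, and the block within genotype 41 genes and none of the enzymes. The enzyme under 0.05 was Ampd2, at -0.53 log2 (SE 0.21, edgeR adjusted p = 1.00). Ampd2 had -0.16 log2 in the KO response and 0.38 in the WT response. Calls that passed in one genotype and not the other, such as those of Tk2, Dhodh and Hprt, with differences of -0.61, -0.72 and -0.20 log2 (edgeR adjusted p = 1.00 for each), are therefore not shown to differ between genotypes. For Nt5c3, Dck and Pnp the difference of the responses was 0.04, 0.03 and 0.15 log2, with standard errors of 0.36, 0.39 and 0.38.

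Of the 44 tested enzymes 21 passed in none of the 5 comparisons. They were Gart, Pfas, Paics, Adsl and Atic of purine synthesis, Impdh2 and Gmps of the GMP branch, Cad and Ctps2 of pyrimidine synthesis, Uck2 and Uckl1 of uridine salvage, Dguok, Tk1, Nt5c3b, Ada, Xdh, Ampd3, Dctpp1, Cmpk1, Guk1 and Nme1. Uckl1 overlaps Zfp512b over 2790 bases of the same strand, so its counts are uncertain. Nme1 was called higher in KO cells with bacteria by DESeq2, at 0.67 log2 (adjusted p = 0.0248). A missed threshold does not show that these enzymes were the same in all groups. The share of all tested genes that passed in none of the comparisons was not counted.

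Another list held 44 nucleotide enzymes outside the group, of which 43 were found and 30 tested. In KO cells 4 of the 30 rose and 8 fell with bacteria, against 11.6% and 11.5% of all tested genes. In WT cells 4 rose and 2 fell, against 10.6% and 8.07%. In KO over WT cells 5 were higher and 1 lower with bacteria, against 9.21% and 4.89% of all tested genes. Untreated, 4 were higher and 2 lower, against 9.5% and 3.46%. The mitochondrial UMP and CMP kinase Cmpk2 had the largest fitted rise among those with counts in every group, with 161, 448 and 636 CPM in KO cells with bacteria and 5.96, 8.67 and 6.69 CPM in untreated KO cells. WT cells had 175, 227 and 229 CPM of it with bacteria and 4.42, 11.8 and 3.12 CPM untreated. Cmpk2 rose by 5.87 (SE 0.57, edgeR adjusted p = 2.47e-05) log2 in KO cells and 5.02 (SE 0.55, edgeR adjusted p = 9.27e-05) log2 in WT cells, while its cytosolic relative Cmpk1 did not pass in either. Nudt9, which splits ADP-ribose, rose in both genotypes as well, by 1.38 log2 in KO cells and 0.95 log2 in WT cells. The nucleotidase Nt5c1a had 0.0599, 1.91 and 0.771 CPM in KO cells and 0.706, 1.10 and 0.521 CPM in WT cells with bacteria and 0 counts in all 6 untreated libraries. Both subunits of ribonucleotide reductase, which makes deoxynucleotides, were higher in KO cells, Rrm1 by 0.85 (SE 0.18, edgeR adjusted p = 0.00892) log2 with bacteria and 0.94 (SE 0.18, edgeR adjusted p = 0.00463) untreated, and Rrm2 by 1.86 (SE 0.22, edgeR adjusted p = 0.000491) and 1.48 (SE 0.22, edgeR adjusted p = 0.00134). Pnp2 was higher in KO cells with bacteria, by 1.60 (SE 0.45, edgeR adjusted p = 0.0324) log2, where Pnp itself had 0.77 (SE 0.27, edgeR adjusted p = 0.0767). DESeq2 called Pnp higher there too, at 0.76 log2 (adjusted p = 0.0429), as did edgeR without KO library 1 with bacteria, at 1.03 log2 (adjusted p = 0.00755).

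Short motifs were searched on both strands of the RefSeq promoters, which run from 250 bases before the start to 50 after it and were found for 44 of the 47 members. The interferon-stimulated response element, searched as GAAANNGAAA, was present in 3.44% of 32851 promoters and, counting a gene once over all its starts, in 3.99% of 27025 genes. Members are counted in the same way, and some have several starts, up to 7 for Nt5c2. It was in none of the 7 members that rose with bacteria in either genotype, and of the 44 only Cmpk1 held it. Only these RefSeq starts were searched, which for Nt5c3 and Pnp leaves out the outer ends of their gene spans. The E-box CACGTG was present in 7.15% of all promoters, in 8.09% of all genes and in 7 of the 44 members, which were Ampd3, Atic, Impdh2, Nme1, Nt5c2, Paics and Tyms. The NRF1 motif, searched as GCGCNTGCGC, was present in 4.60% of all promoters, in 5.19% of all genes and in 5 members, Adk, Ctps, Ppat, Samhd1 and Uck1. NF-kB motifs were present in 8.46% of all promoters, in 9.55% of all genes and in 6 members, of which Impdh1 and Nt5c2 were called in a comparison. A match is a description of letters in these windows, and the absence of one says nothing of a factor.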

How the data were processed

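Bulk RNA-seq of 12 libraries was analysed, 3 in each of 4 groups taken from the labels. The authors deposited whole-number counts per gene, not normalized. Per the submitters' processing notes, CASAVA 1.8, HISAT2 and mm10 were used, while no source used here gives the counting tool or its strand setting. Total counts ran from 15693172 to 24074596 per library. Counts were fitted with edgeR 4.0.16 (limma 3.58.1, R 4.3.3), by the robust quasi-likelihood test with TMM factors and a mean for each group over all 12 libraries. The filterByExpr filter left 14293 genes, over which p-values were adjusted by Benjamini-Hochberg in each of 5 comparisons, with a threshold of 0.05. Steps were tested on simulated data. DESeq2 1.42.0, other scaling, filters, blocks and left-out libraries were tried as alternatives. The labels give the groups the same library numbers. Libraries of the same genotype and number deviated together (r = 0.226 to 0.530 over 6 pairs), while those of the same number and other genotype did so less (r = 0.044 to 0.323 over 12 pairs), so a block within genotype is given beside the responses. By rule, members past the threshold in any comparison are given by library, the rest by range and count, and other lists by counts with up to 4 examples. The members and gene lists were chosen with earlier results of these data known. Promoters came from RefSeq on GRCm38.p6.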

Additional observations from a re-analysis of the deposited data

How the results depend on the processing

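Of 38 results of single enzymes past the threshold, 18 kept their call under every alternative (23 for the responses, 22 for KO against WT), 20 lost it under some, and 0 changed direction. For the enzymes called in the WT response, the count of 9 became 22 with library totals alone, 14 with the replicate block, 21 with the block within genotype and 14 with a term for libraries numbered 1, and 5 to 13 with 1 library left out. In the KO response, 12 became 27 with library totals and 19 with the block within genotype, and 7 to 14 with 1 library left out. Over all genes, the WT response of 2676 became 5024 with library totals, 4561 with the block within genotype and 1509 to 2936 with 1 library left out, and the KO response of 3292 became 5721, 4986 and 2132 to 3651. In KO against WT untreated, the count of 5 enzymes became 8 with library totals, 8 with DESeq2, 11 with only the groups compared, 11 with the replicate block, 10 with a term for libraries numbered 1, 8 without both KO libraries numbered 1, 8 without all 4 libraries numbered 1, and 4 to 8 with 1 library left out (all genes 1852, with 863 to 2123). With bacteria, 12 enzymes became 6 with only the groups compared and 5 to 19 with 1 library left out, and 2016 genes became 1074 with only the groups compared, 3056 without both KO libraries numbered 1 and 1028 to 2888 with 1 library left out. For the difference of the responses, 0 genes became 6 with DESeq2, 2 with no filter, 41 with the block within genotype, 7 without both KO libraries numbered 1 and 0 to 8 with 1 library left out, and 0 enzymes stayed 0 in each of these. The cause of these shifts was not tested. Low counts limit Nt5m, Upp1, Dhodh and Ada, and Gda in WT cells.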
